A study of Mus musculus with 4 samples.

Results

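The 10 genes described here encode the cyclins, cyclin-dependent kinases (CDKs) and CDK inhibitors that act in the G1 phase of the cell cycle. They were chosen by gene symbol, and all 10 were found among the 23420 rows of the count files and passed the filter on low counts. They are the D-type cyclin genes Ccnd2 and Ccnd3, their kinase genes Cdk4 and Cdk6, the E-type cyclin genes Ccne1 and Ccne2, the CIP/KIP inhibitor genes Cdkn1a (p21) and Cdkn1b (p27), and the INK4 inhibitor genes Cdkn2c (p18) and Cdkn2d (p19). RNA was sequenced from 2 libraries of a mouse large pre-B cell line labelled shMyb, which had received a retrovirus with a short hairpin RNA directed at Myb, and from 2 libraries labelled shLuc, whose hairpin was directed at luciferase, a target that mouse cells do not have. Both groups were the same Irf4/8-/- line, which lacks the transcription factors Irf4 and Irf8. It was grown on the OP9 stromal line as a feeder layer with interleukin 7 at 10 ng/ml in Opti-MEM with serum, antibiotics and β-mercaptoethanol. Both viruses also carried a green fluorescent protein reporter, and polybrene was present at transduction. Each set of 12 wells was kept for 72 hours, sorted for fluorescence and counted as 1 sample. The replicates are duplicate transductions of 1 line, so every p-value measures the spread between duplicates and not between lines or animals. That spread was estimated with information shared across genes, and not from the libraries of each gene alone.

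In a cell that enters the cycle, D-type cyclins bind CDK4 or CDK6, and these kinases begin the phosphorylation of the retinoblastoma protein, which releases E2F transcription factors. E-type cyclins, themselves products of E2F target genes, then activate CDK2 and carry the cell into S phase. INK4 inhibitors bind CDK4 and CDK6, while CIP/KIP inhibitors bind cyclin-CDK complexes and block CDK2. In the mouse, cyclin D3 is the D-type cyclin that the expansion of large pre-B cells depends on, downstream of the pre-B cell receptor and interleukin 7.

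In the libraries labelled shMyb, every cyclin and kinase gene of the set fell and the inhibitor genes divided. The 7 genes that fell were Ccnd2, Ccnd3, Cdk4, Cdk6, Ccne1, Ccne2 and Cdkn1a. Cdkn1b and Cdkn2d rose, and Cdkn2c did not pass the test. The changes were moderate, from a 0.691-fold level of Cdkn1a to a 1.24-fold level of Cdkn1b, and no member changed by 2-fold. A gene was called at an edgeR adjusted p below 0.05. Of all 12610 tested genes 62.2% were called, 30.6% higher and 31.7% lower, so the 9 of 10 members called stand against a background in which most genes were called. The median log2 fold change of the 10 members was -0.17, against 0.0048 over all tested genes, and the median size without regard to sign was 0.245 for the members and 0.236 for all. CPM denotes read counts scaled to a common library total by edgeR's TMM method. The CPM values of the groups did not overlap for any of the 10 members, nor for 82.1% of all tested genes. In bulk RNA, fewer cells of a type and less RNA per cell cannot be told apart.

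Lower calls were more frequent among abundant genes, and most members are abundant. Between 30 and 100 CPM, where Cdk6, Ccne1, Ccne2, Cdkn2c and Cdkn2d lay, 40.1% of genes were lower and 27.1% higher. From 100 to 300 CPM, where Cdkn1b lay, 44.3% were lower and 27.6% higher. From 300 to 1000 CPM, where Ccnd2, Cdk4 and Cdkn1a lay, 54.2% were lower, and above 1000 CPM, where Ccnd3 lay, 81.3% of 75 genes were.

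The libraries held 38318335 and 36573743 counts in shMyb and 40701550 and 44682954 counts in shLuc, and the least abundant member had 1389 counts in its lowest library. Myb itself was at 617 and 639 CPM in the libraries labelled shMyb and at 616 and 600 CPM in shLuc (log2 fold change 0.046, SE 0.04, edgeR adjusted p = 0.283). The targeted transcript was therefore not measured lower, and each direction below compares libraries by their labels and is not a measured response to less Myb transcript. It was called higher when libraries were scaled by their totals alone (0.11) or corrected for the trend with expression level (0.17). The label of the cells was checked with genes of the B lineage. Cd79a, at 1057 and 1037 CPM in shMyb and 889 and 907 CPM in shLuc, was called higher (0.22). Igll1, at 654 and 641 CPM in shMyb and 824 and 851 CPM in shLuc, was called lower (-0.37). Vpreb1, at 748 and 736 CPM in shMyb and 893 and 921 CPM in shLuc, was lower too (-0.29). Of the 10 genes of the large pre-B cell list, 5 were called higher and 4 lower. Among these 4 was Dntt, also a gene of the earlier pro-B stage, at 684 and 681 CPM in shMyb and 1249 and 1289 CPM in shLuc. The 14 markers of stroma summed to 151 and 163 CPM in shMyb and 113 and 85.7 CPM in shLuc, with 2 of 13 tested higher and 2 lower. Those higher were Sparc, at 5.77 and 5.99 CPM in shMyb and 5.03 and 3.79 CPM in shLuc, and Thy1, which other cells make as well, at 62.5 and 58.7 CPM in shMyb and 12.9 and 11.7 CPM in shLuc. Those lower were Fn1, at 6.95 and 7.40 CPM in shMyb and 22.7 and 18.6 CPM in shLuc, and Cxcl12, at 0.41 and 0.69 CPM in shMyb and 1.90 and 1.93 CPM in shLuc. Without Thy1 the sums overlapped, at 88.7 and 104 CPM in shMyb and 100 and 74.0 CPM in shLuc. That sum joins genes that moved in opposite directions, so its overlap does not show equal levels of each marker. The collagen gene Col1a1 was at 12.7 and 14.8 CPM in shMyb and 15.0 and 11.2 CPM in shLuc. Among other uncalled markers, the groups stood apart for S100a6, at 36.5 and 44.8 CPM in shMyb and 27.8 and 17.4 CPM in shLuc (0.85). They also stood apart for Col3a1, higher in shMyb (1.24), and for Col1a2 (-0.19) and Ccnd1 (-0.42), both lower. The 12 myeloid markers summed to 10.8 and 12.8 CPM in shMyb and 7.06 and 5.67 CPM in shLuc. Of 8 tested, 5 were called higher and 0 lower. Those higher were Itgam, at 2.87 and 3.30 CPM in shMyb and 1.20 and 0.96 CPM in shLuc, Cd14 (1.73), Cebpa (1.76), Lyz2 (0.99) and Cd68 (0.64). All 5 averaged below 3 CPM. Of all tested genes below 1 CPM 34.3% were higher and 8.07% lower, and from 1 to 3 CPM 39.2% were higher and 14% lower. Elane and Ctsg had no count in any library, which allows up to 0.0799 CPM in shMyb and 0.0751 CPM in shLuc from counting error alone. The 7 T cell markers in the files summed to 120 and 113 CPM in shMyb and 98.9 and 101 CPM in shLuc, nearly all from the kinase gene Lck, and Cd4 and Cd8a had no count. The part of such cells in the members' values was not tested.

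Promoter windows of 300 bases, from 250 before to 50 after a RefSeq start (GRCm38.p6), were on hand for 8 of the 10 members, with 11 windows in all. The windows of both D-cyclin kinases, which fell, and of Cdkn1b, the member that rose most, are shown because they differ in the motif CACGTG, the E-box that MYC and other factors bind. Capitals mark that motif.
Cdk4 (chr10:127063285-127063584, plus strand): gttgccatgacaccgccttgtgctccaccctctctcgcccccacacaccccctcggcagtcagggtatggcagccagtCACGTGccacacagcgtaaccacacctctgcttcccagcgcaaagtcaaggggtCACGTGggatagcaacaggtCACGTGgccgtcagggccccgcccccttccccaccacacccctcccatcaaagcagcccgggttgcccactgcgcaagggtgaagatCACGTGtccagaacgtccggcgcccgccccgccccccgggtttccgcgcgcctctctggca
Cdk6 (chr5:3343643-3343942, plus strand): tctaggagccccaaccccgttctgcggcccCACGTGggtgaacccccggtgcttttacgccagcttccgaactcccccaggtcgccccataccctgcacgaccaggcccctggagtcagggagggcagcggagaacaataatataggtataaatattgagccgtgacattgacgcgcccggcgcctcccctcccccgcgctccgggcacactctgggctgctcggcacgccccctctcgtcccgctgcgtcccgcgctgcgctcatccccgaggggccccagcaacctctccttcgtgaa
Cdkn1b (chr6:134920151-134920450, plus strand): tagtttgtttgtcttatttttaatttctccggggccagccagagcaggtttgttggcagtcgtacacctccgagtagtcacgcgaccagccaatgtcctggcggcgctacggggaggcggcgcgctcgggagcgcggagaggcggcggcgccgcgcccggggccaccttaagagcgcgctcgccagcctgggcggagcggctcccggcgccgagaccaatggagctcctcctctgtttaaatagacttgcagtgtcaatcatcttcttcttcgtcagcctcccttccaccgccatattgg
The Cdk4 window held 4 E-boxes, whose first bases lay 172, 118, 98 and 11 bases before the start, and the Cdk6 window held 1, at 220 bases before it. The Cdkn1b window held none. The motif, which reads the same on both strands, was present in 7.15% of the 32851 mouse windows of this length, and 8 windows (0.0244%) held 4 or more. Among the other windows of members, only the second of Cdkn2c, which was not called, held an E-box. The windows of Ccnd3, Ccne1 and Cdkn1a, which also fell, held none, as did that of Cdkn2d, which rose. Ccnd2 and Ccne2, which fell, had no window. Whether the motif goes with the direction of change was not tested. On both strands, a loose E2F-type motif, TTTNNCGC with any base at N, was found in the Cdk6 window alone among members. The match there read TTTTACGC, and 5.17% of all windows held the motif. A FOXO-type motif, GTAAACA, was in a window of Ccnd3 and in 3.65% of all. The MYB-type core AACNG, present in 80.3% of all windows, was in all the members' windows except that of Ccne1. The motifs were chosen with the sequences in view, none of these motifs overlaps the E-boxes shown, the FOXO-type motif of Ccnd3 overlaps a MYB-type core, and a match describes letters in a window and not a bound site.

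Ccnd3, cyclin D3, was the most abundant member. It had 1238 and 1188 CPM in the libraries labelled shMyb, against 1563 and 1623 CPM in shLuc. The shMyb libraries were both below both shLuc libraries, by more than the spread within either pair. Ccnd3 fell by 0.39 on the log2 scale (SE 0.04, edgeR adjusted p = 5.05e-09), and 10.1% of tested genes had a lower value. The gene lies at chromosome 17, 47505051 to 47599691, plus strand (GENCODE M21, GRCm38). Corrected for the trend with expression level, its log2 fold change was -0.22 (edgeR adjusted p = 1.22e-06), and corrected for GC content and length it was -0.57. An exon of Bysl, a ribosome biogenesis gene on the opposite strand, overlaps 4.11% of Ccnd3's exon length, and Bysl had 44.8 and 43.5 CPM in shMyb and 63.3 and 66.9 CPM in shLuc.

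Ccnd2, cyclin D2, had 361 and 343 CPM in the libraries labelled shMyb and 388 and 381 CPM in shLuc. The groups did not overlap, but the gap between the nearest libraries was close to the distance between the 2 shMyb libraries. Ccnd2 fell by 0.13 on the log2 scale (SE 0.04, 95% interval -0.20 to -0.05, edgeR adjusted p = 0.0046), and 33.8% of tested genes had a lower value. The call ended when libraries were scaled by their totals alone (-0.06, edgeR adjusted p = 0.1), with the trend with expression level corrected (-0.04, edgeR adjusted p = 0.233) and without shMyb replicate 2 (-0.09, edgeR adjusted p = 0.0791). Ccnd1, cyclin D1, which is not a member, had 1.82 and 2.26 CPM in shMyb and 2.78 and 2.68 CPM in shLuc and did not pass (-0.42, edgeR adjusted p = 0.0537), although it was called lower with no low-count filter (-0.44), with the expression trend corrected (-0.67) and without shMyb replicate 2 (-0.58). Without shMyb replicate 1 it was at -0.28 (edgeR adjusted p = 0.349), and Ccnd1 is also one of the stroma markers above.

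The ratio of a pair of genes within a library does not depend on how libraries are scaled. The log2 ratio of Ccnd3 to Ccnd2 counts was 1.78 and 1.79 in the libraries labelled shMyb and 2.01 and 2.09 in shLuc. The ratio was lower in both shMyb libraries, by 0.27 on average, with SDs of 0.009 in shMyb and 0.06 in shLuc (n = 2 each). With 2 libraries against 2, an exact two-sided permutation test cannot go below a p of 1 in 3, so the ratios are given without a test. Per kilobase of exon, Ccnd3 made up 78.5% of D-type cyclin RNA in both shMyb libraries, against 81.0% and 81.8% in shLuc, and Ccnd2 made up 21.3% and 21.2% in shMyb, against 18.7% and 17.9% in shLuc. The summed level of the 3 D-type cyclin genes was 176 ± 5.34 CPM per kilobase in shMyb and 223 ± 4.30 in shLuc (SD, n = 2 each).

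**Figure D1:**
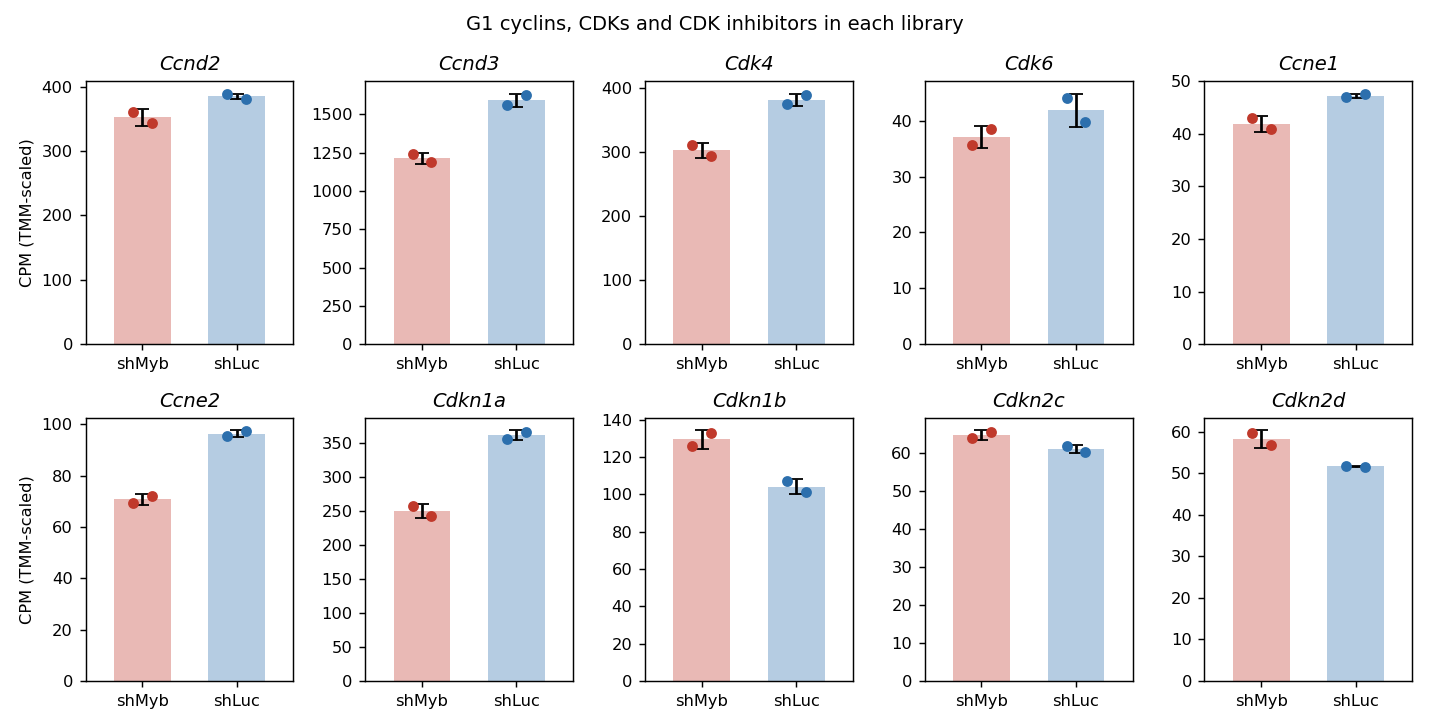
Level of each member by library in TMM-scaled CPM (vertical axes, each from 0), with libraries labelled shMyb left of shLuc. Points are the 2 libraries of a group, bars their mean and error bars the SD, and all 10 pairs of groups stand apart, with Ccnd3 highest at 1188 to 1238 CPM in shMyb and 1563 to 1623 CPM in shLuc.

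Cdk4 encodes the more abundant of the kinases that D-type cyclins activate. It had 311 and 294 CPM in the libraries labelled shMyb, against 374 and 388 CPM in shLuc. Both shMyb libraries lay below both shLuc libraries, and the gap exceeded the distance within either pair. Cdk4 fell by 0.33 on the log2 scale (SE 0.04, edgeR adjusted p = 4.15e-08), and its log2 fold change stayed between -0.38 and -0.26 over 14 alternatives. The gene lies at chromosome 10, 127063534 to 127067920, plus strand, and its promoter window is the one with 4 E-boxes above. Exons of Tspan31 on the opposite strand overlap 19.7% of its exon length. Tspan31 had 53.2 and 50.5 CPM in shMyb and 52.2 and 54.1 CPM in shLuc and did not pass (-0.03, edgeR adjusted p = 0.513).

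Cdk6 encodes the other D-cyclin kinase and was far less abundant. It had 35.6 and 38.5 CPM in shMyb, against 44.0 and 39.8 CPM in shLuc, on 1389 to 1757 counts per library. The groups came close to each other, with shMyb replicate 2 only just below shLuc replicate 2. Cdk6 fell by 0.18 on the log2 scale (SE 0.05, 95% interval -0.29 to -0.06, edgeR adjusted p = 0.00757). The call ended without shMyb replicate 1 (-0.13, edgeR adjusted p = 0.0592), without shLuc replicate 1 (-0.12, edgeR adjusted p = 0.0868), with library totals alone (-0.11, edgeR adjusted p = 0.114) and with DESeq2 (-0.17, DESeq2 adjusted p = 0.0626). Cdk4 and Cdk6 counts had a log2 ratio of 3.12 and 2.93 in shMyb and 3.09 and 3.29 in shLuc. These ranges overlapped, and an unequal change of the kinases was not detectable with these libraries. Per kilobase of exon, Cdk6 made up 2.60% and 2.95% of the pair's RNA in shMyb and 2.65% and 2.33% in shLuc.

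Ccne2, cyclin E2, had the largest fall among the cyclins and kinases. It had 69.2 and 72.1 CPM in the libraries labelled shMyb, against 95.3 and 97.2 CPM in shLuc. The libraries of each pair lay close together and the pairs far apart. Ccne2 fell by 0.45 on the log2 scale (SE 0.04, edgeR adjusted p = 6.03e-10), and 8.14% of tested genes had a lower value. It lies at chromosome 4, 11191351 to 11204779, plus strand. Exons of Ints8, an Integrator subunit gene on the opposite strand, overlap 17.4% of its exon length, and Ints8 also fell, with 87.1 and 87.2 CPM in shMyb and 101 and 100 CPM in shLuc (-0.21, edgeR adjusted p = 4.13e-05). Whether reads of Ints8 were counted for Ccne2 was not tested.

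Ccne1, cyclin E1, fell by less. It had 43.0 and 40.9 CPM in shMyb, against 47.0 and 47.5 CPM in shLuc. All 4 libraries were within a narrow range, and the shMyb pair lay below the shLuc pair. Ccne1 fell by 0.17 on the log2 scale (SE 0.05, 95% interval -0.27 to -0.08, edgeR adjusted p = 0.0024), and the value was -0.11 (edgeR adjusted p = 0.0392) with library totals alone. The log2 ratio of Ccne1 to Ccne2 counts was -0.69 and -0.82 in shMyb and -1.02 and -1.03 in shLuc, higher in both shMyb libraries by 0.27 on average. Per kilobase of exon, Ccne2 made up 55.1% and 57.3% of E-type cyclin RNA in shMyb and 60.7% and 60.9% in shLuc. The summed level of both genes was 36.0 ± 0.02 CPM per kilobase in shMyb and 45.3 ± 0.52 in shLuc (SD, n = 2 each).

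**Figure D2:**
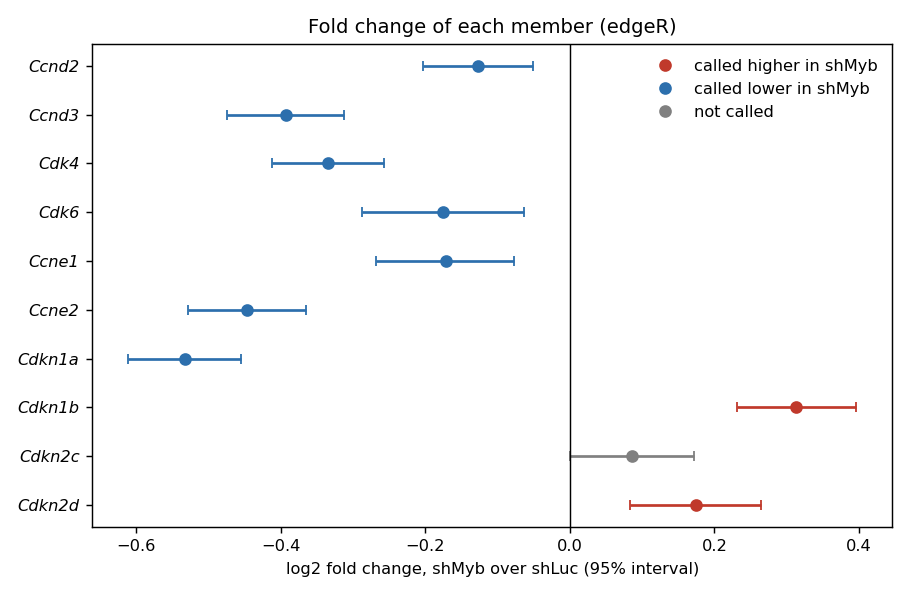
Log2 fold change of each member, shMyb over shLuc (horizontal axis), as a point with its 95% interval from the edgeR fit. Of the 10 members, 7 lie below 0, Cdkn1b (0.31) and Cdkn2d (0.17) lie above it, and the interval of Cdkn2c reaches 0.

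The inhibitors of the CIP/KIP family moved in opposite directions. Cdkn1a encodes p21, a target of the p53 protein. It had 257 and 243 CPM in the libraries labelled shMyb, against 356 and 367 CPM in shLuc. The groups were well apart, and the fall of 0.53 on the log2 scale was the largest change of the set (SE 0.04, edgeR adjusted p = 9.19e-12). Of all tested genes, 6.12% had a lower value. The gene lies at chromosome 17, 29090976 to 29100727, plus strand, and a transcript of uncertain coding status on the opposite strand overlaps 7.68% of its exon length. Over 14 alternatives the value stayed between -0.58 and -0.46.

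Cdkn1b encodes p27, an inhibitor that accumulates in resting cells and is transcribed under FOXO factors. It had 126 and 133 CPM in the libraries labelled shMyb, against 107 and 101 CPM in shLuc. Both shMyb libraries exceeded both shLuc libraries, by more than the distance within either pair. Cdkn1b rose by 0.31 on the log2 scale (SE 0.04, edgeR adjusted p = 2.61e-07), and over 14 alternatives the value stayed between 0.26 and 0.40. It lies at chromosome 6, 134920401 to 134925513, plus strand, and no annotated exon of another gene overlaps it. The fit found 23.8% of tested genes with a higher value.

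Since these inhibitor genes moved in opposite directions, their ratio within a library necessarily shifted by more than either alone. The log2 ratio of Cdkn1a to Cdkn1b counts was 1.03 and 0.87 in shMyb and 1.73 and 1.86 in shLuc, a difference of -0.85 on average, or a 0.556-fold ratio. Per kilobase of exon, Cdkn1b made up 27.5% and 29.8% of CIP/KIP RNA in shMyb, against 19.0% and 17.7% in shLuc. Cdkn1a remained the larger share in all 4 libraries. The summed level of Cdkn1a, Cdkn1b and Cdkn1c was 99.2 ± 1.77 CPM per kilobase in shMyb and 125 ± 1.16 in shLuc (SD, n = 2 each). Cdkn1c (p57), not a member, was scarce, with 39 and 40 counts in shMyb and 19 and 13 counts in shLuc (1.42, SE 0.34, edgeR adjusted p = 8.64e-04). Of tested genes below 1 CPM, where Cdkn1c lay, 34.3% were higher and 8.07% lower, at a median log2 fold change of 0.52. With the expression trend corrected, Cdkn1c was at 0.97 (edgeR adjusted p = 0.0143).

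Of the INK4 genes, Cdkn2d rose and Cdkn2c did not pass the test. Cdkn2d encodes p19INK4d, which binds CDK4 and CDK6. It had 59.8 and 56.8 CPM in the libraries labelled shMyb, against 51.7 and 51.6 CPM in shLuc. The shLuc libraries were almost equal, and both shMyb libraries lay above them. Cdkn2d rose by 0.17 on the log2 scale (SE 0.04, 95% interval 0.08 to 0.26, edgeR adjusted p = 0.00136). Cdkn2c encodes p18INK4c, a restraint on lymphocyte division in the mouse. It had 63.8 and 65.5 CPM in shMyb and 61.6 and 60.2 CPM in shLuc. The values of the groups did not overlap but differed by few CPM, and the log2 fold change of 0.09 did not pass (SE 0.04, 95% interval -5.7e-04 to 0.17, edgeR adjusted p = 0.0781). It was called higher with library totals alone (0.15, edgeR adjusted p = 0.00481), with a filter of 1 CPM in 2 libraries (0.10, edgeR adjusted p = 0.0425) and with the expression trend corrected (0.12, edgeR adjusted p = 0.0131), and it was at -0.0010 (edgeR adjusted p = 0.985) with GC content and length corrected.

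Ratios of inhibitor genes to Ccnd3 or Cdk4 did not all move one way. Those of Cdkn1b, Cdkn2c and Cdkn2d were higher in the libraries labelled shMyb, and those of Cdkn1a were lower. The log2 ratio of Cdkn1b to Ccnd3 counts was -3.30 and -3.16 in shMyb and -3.87 and -4.00 in shLuc, a difference of 0.71, or a 1.63-fold ratio. For Cdkn2d over Cdk4 the log2 ratio was -2.38 and -2.37 in shMyb and -2.86 and -2.91 in shLuc, a difference of 0.51. For Cdkn2c over Cdk4 it was -2.28 and -2.17 in shMyb and -2.60 and -2.69 in shLuc, a difference of 0.42. Cdkn1a over Ccnd3 was at -2.27 and -2.29 in shMyb and -2.13 and -2.15 in shLuc, a difference of -0.14, and Cdkn1a over Cdk4 was at -0.27 and -0.28 in shMyb and -0.07 and -0.08 in shLuc, a difference of -0.20. Both Cdkn1a ratios were chosen after their genes' values were seen. Between the INK4 genes, Cdkn2c over Cdkn2d was at 0.09 and 0.21 in shMyb and 0.25 and 0.22 in shLuc, a small difference of -0.09. In the ratios named with Ccnd3 or Cdk4 the shMyb libraries were apart from shLuc by several times the SD within a group, which ran from 0.0027 to 0.10. Such a ratio shows unequal change and not which of its genes moved. The GC content and length correction moves genes within a library and so can move these ratios.

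**Figure D3:**
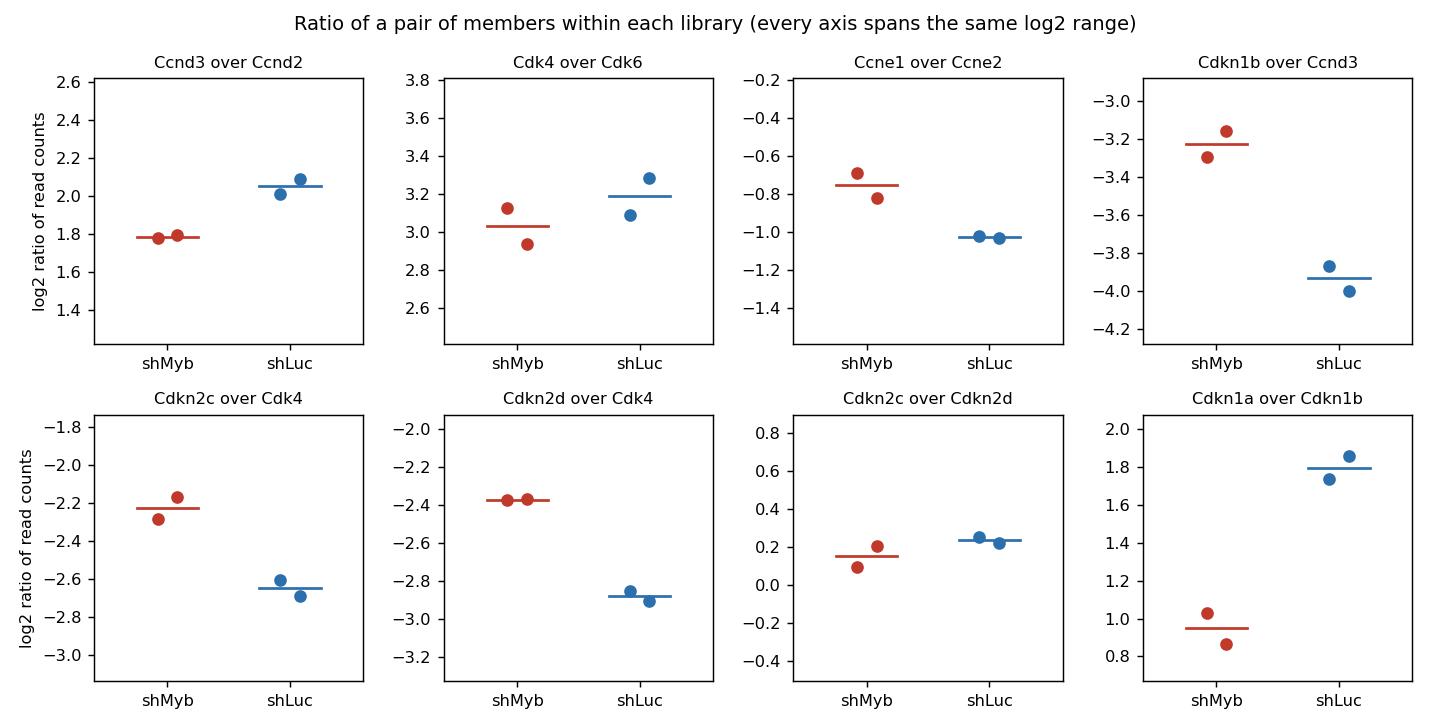
Log2 ratio of read counts for 8 pairs of members within each library (vertical axis), with shMyb left of shLuc. Points are libraries, lines group means and every axis spans the same range. Cdkn1a over Cdkn1b shows the largest difference (-0.85), and only Cdk4 over Cdk6 overlaps between the groups.

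Levels of different genes were compared per kilobase of exon. In the libraries labelled shMyb the order of mean CPM per kilobase was Ccnd3 (138), Cdk4 (93.0), Cdkn1a (70.3), Ccnd2 (37.4), Cdkn2d (37.0), Cdkn1b (28.4), Cdkn2c (24.1), Ccne2 (20.2), Ccne1 (15.8) and Cdk6 (2.65). In shLuc it was Ccnd3 (182), Cdk4 (117), Cdkn1a (102), Ccnd2 (40.9), Cdkn2d (32.8), Ccne2 (27.6), Cdkn1b (22.9), Cdkn2c (22.7), Ccne1 (17.8) and Cdk6 (2.99). Ccne2 thus stood below Cdkn1b and Cdkn2c in shMyb and above them in shLuc. Ccnd2 and Cdkn2d overlapped in shMyb, and Cdkn1b and Cdkn2c overlapped in shLuc, so these neighbours did not differ beyond their spread there. The exon length counts every annotated exon of a gene once, which understates a gene whose long exons are little used.

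The members with the smallest p in each direction, Cdkn1a and Cdkn1b, were set beside 8292 other genes that averaged 10 CPM or more. The measure was the Euclidean distance over the 4 log2 CPM values, each centred on the gene's mean, and with 4 libraries it mostly reflects the fold change. Nearest to Cdkn1a were Car2 (log2 fold change -0.53, distance 0.02), Chchd4 (-0.56, 0.02) and Tomm20 (-0.53, 0.02). Nearest to Cdkn1b were Ddx3y (0.32, 0.0052), Rltpr (0.32, 0.0086) and Ikbke (0.31, 0.01). With GC content and length corrected, Rltpr was at 0.13.

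Other genes of the G1 pathway were taken from 6 lists of 84 distinct tested genes, of which 47 fell and 20 rose. Of all tested genes 31.7% were lower and 30.6% higher, with lower calls more frequent among abundant genes as given above. All of the S phase entry genes tested that were called were lower, 19 of 20, at a median log2 fold change of -0.22. Among them were the helicase gene Mcm6 (-0.43, edgeR adjusted p = 3.10e-10), the thymidylate synthase gene Tyms (-0.37), the sliding clamp gene Pcna (-0.32) and the polymerase gene Pola1 (-0.30). Many of the S phase entry genes lay between 300 and 1000 CPM, where 54.2% of tested genes were lower and 21% higher. With the expression trend corrected, 19 of the 20 were again lower, at a median of -0.16. Pcna was at -0.18 with GC content and length corrected and at -0.20 with the expression trend corrected. Of 12 cyclin partners and CDK-activating genes 8 fell and 1 rose (median -0.21). The phosphatase gene Cdc25a, which activates CDK2, fell by 0.35 on the log2 scale, with 83.3 and 81.3 CPM in shMyb and 104 and 106 CPM in shLuc (edgeR adjusted p = 1.93e-08). Ccnh, a subunit of the CDK-activating kinase (-0.34), Cdk1, the mitotic kinase (-0.25), and Cdc37, a chaperone of CDK4 (-0.22), fell as well, and Ccnh was at -0.21 with GC content and length corrected. Cdk2, the partner of the E-type cyclins, had 130 and 126 CPM in shMyb and 123 and 128 CPM in shLuc and did not pass (0.03, edgeR adjusted p = 0.508), although it was called higher with library totals alone (0.09, edgeR adjusted p = 0.0301). Pkmyt1, an inhibitory kinase of CDK1, rose by 0.11 (edgeR adjusted p = 0.0429), a call that ended under 8 of 14 alternatives.

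Of 18 genes that act in the ubiquitin-dependent turnover of G1 regulators 13 fell and 2 rose (median -0.20). The shares over all tested genes were 31.7% lower and 30.6% higher. Skp2, which directs p27 to the proteasome, had 81.3 and 82.1 CPM in the libraries labelled shMyb and 111 and 109 CPM in shLuc (-0.43, edgeR adjusted p = 5.41e-10). The shMyb libraries were close to each other and well below shLuc. Its ligase partner Skp1a (-0.35), Dtl, which directs p21 to the CUL4 ligase (-0.32), and Cks2 (-0.29) fell too. With GC content and length corrected, Skp1a was at -0.20 and the Cks2 call ended (-0.08, edgeR adjusted p = 0.0615). The cyclin E ligase gene Fbxw7 (0.19) and the cyclin D ligase gene Ambra1 (0.14) rose. The Ambra1 call ended with GC content and length corrected (0.02), without shMyb replicate 2 (0.10) and without shLuc replicate 2 (0.10).

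Of 13 pocket protein and E2F genes 6 fell and 2 rose (median -0.07). The share of this list that was called was close to the 62.2% of all tested genes called, 31.7% lower and 30.6% higher. Tfdp1, the E2F partner (-0.29), E2f6 (-0.32) and E2f5 (-0.34) fell, and E2f5 was at -0.20 with GC content and length corrected. These were named for their small p, and the 6 that fell also held other E2F genes, activators among them. The pocket protein genes Rbl2 (0.21) and Rb1 (0.12) rose, and the Rb1 call ended without shMyb replicate 1 (0.07, edgeR adjusted p = 0.161) and without shLuc replicate 2 (0.10, edgeR adjusted p = 0.109). With library totals alone, and with GC content and length corrected, Rb1 was at 0.18. Of 3 other CDK inhibitor genes Cdkn1c and Cdkn2a rose and Cdkn2b did not pass (0.09, edgeR adjusted p = 0.742). Cdkn2a, which encodes p16 and ARF, had 36.7 and 36.7 CPM in shMyb and 34.3 and 31.4 CPM in shLuc (0.16, edgeR adjusted p = 0.0096). Its call ended without shLuc replicate 2 (0.09), with GC content and length corrected (0.11) and with DESeq2 (0.16, DESeq2 adjusted p = 0.0881).

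Of 19 upstream regulators of G1 entry, a list that holds both drivers and restraints, 13 rose and 2 fell (median 0.16). The shares over all tested genes were 30.6% higher and 31.7% lower. The 2 that fell were Myc, with 225 and 214 CPM in the libraries labelled shMyb and 325 and 324 CPM in shLuc (-0.57, edgeR adjusted p = 1.73e-12), and the interleukin-7 receptor gene Il7r, with 187 and 183 CPM in shMyb and 270 and 261 CPM in shLuc (-0.52, edgeR adjusted p = 7.25e-12). The kinase gene Mtor, which couples nutrients to growth, rose most, with 699 and 717 CPM in shMyb and 265 and 259 CPM in shLuc (1.43, SE 0.04, edgeR adjusted p = 1.85e-20). The zinc finger gene Ikzf1 rose by 0.53, with 313 and 334 CPM in shMyb and 226 and 224 CPM in shLuc (edgeR adjusted p = 1.23e-11). With GC content and length corrected, 9 of these regulators were higher and 4 lower (median 0.07).

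**Figure D4:**
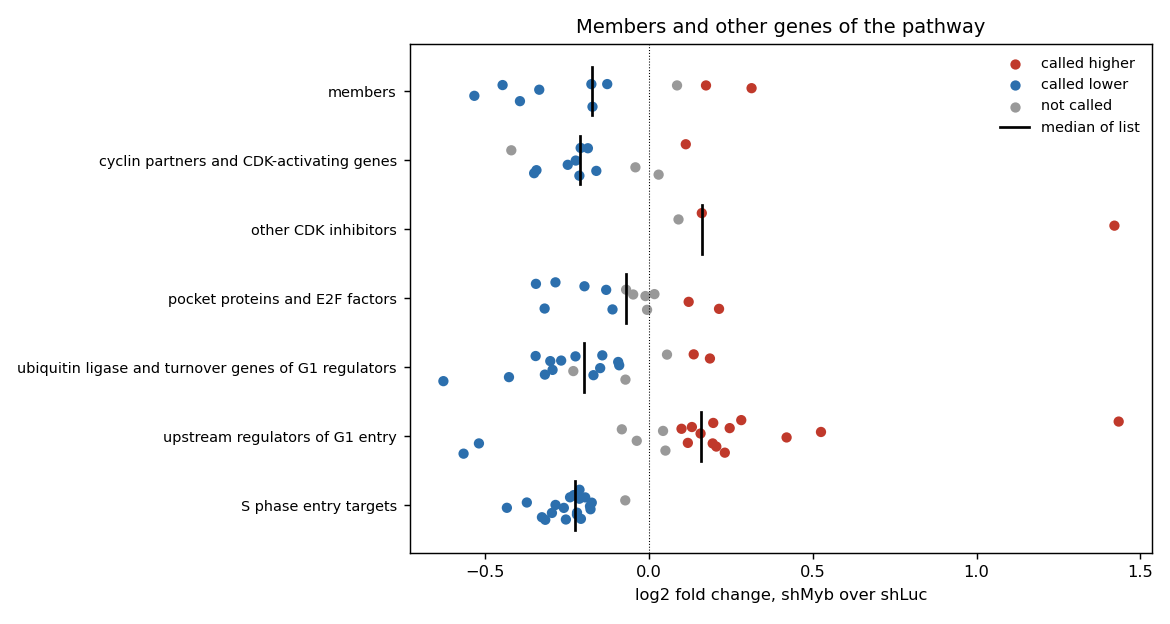
Log2 fold change of each tested gene, shMyb over shLuc (horizontal axis), for the 10 members and the 6 lists of other pathway genes. Points are genes coloured by call and black bars are list medians, which run from -0.22 for S phase entry genes to 0.16 for upstream regulators and other CDK inhibitors.

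**Figure D5:**
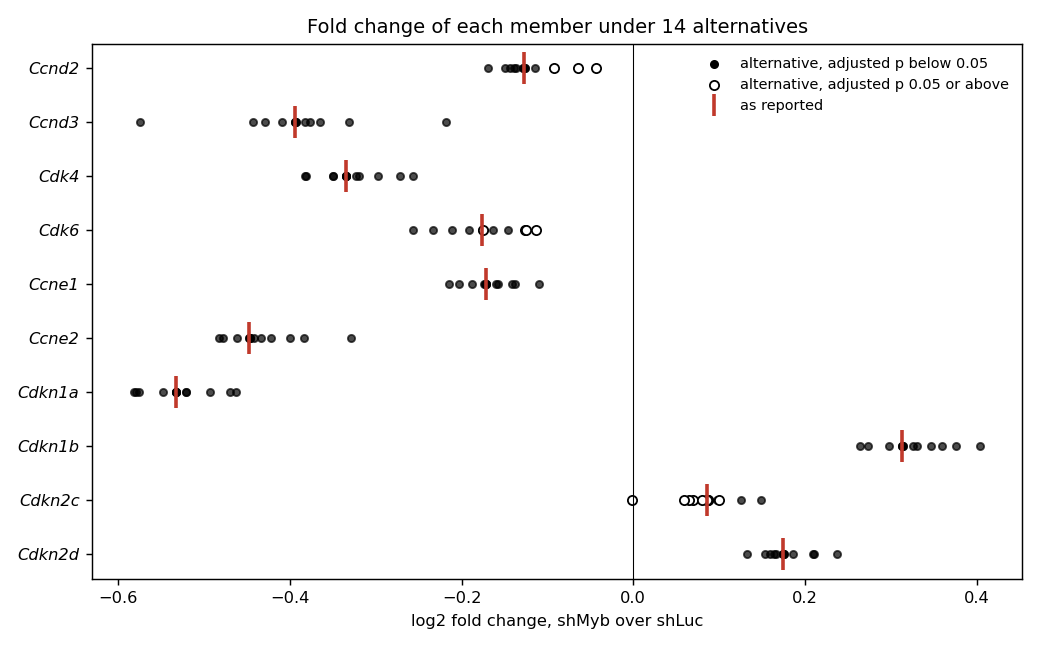
Log2 fold change of each member, shMyb over shLuc (horizontal axis), as reported (red bar) and under 14 alternatives (points, filled where the adjusted p was below 0.05). Ccnd2, Cdk6 and Cdkn2c have open points, and the other 7 members have filled points on 1 side of 0.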

How the data were processed

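The authors deposited raw counts of reads for each gene symbol, with every library in a file of its own. Per the submitters' processing notes, FastQC, STAR, HTSeq, DESeq2 and the mm10 build were used, with no versions or roles given. Neither the annotation nor the strand setting is given in the sources used here, so reads of overlapping genes on opposite strands may not be separated. Lengths and coordinates come from GENCODE M21 (GRCm38, the same assembly as mm10), which matched 21751 symbols by name and 1274 by an older symbol.

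From the counts, genes were kept by filterByExpr at a minimum count of 10, scaled by TMM and tested with edgeR 4.0.16 in R 4.3.3 (glmQLFit with robust=TRUE, glmQLFTest, group as the only term), shMyb over shLuc. P-values were adjusted over all tested genes by the Benjamini-Hochberg method. Each SE was obtained from the log2 fold change and the F statistic of its test. Alternatives were RLE scaling, library totals, DESeq2 1.42.0, limma-voom (limma 3.58.1), no filter, at least 1 CPM in 2 libraries, glmQLFit with robust=FALSE, a replicate block, corrections for the trend with expression level or with GC content and length, leaving out each library, and an adjusted p below 0.01. Libraries of a group differed by more than counting noise (chi-square per degree of freedom 4.23 in shMyb and 3.78 in shLuc) and were counted separately. The members and lists were chosen with earlier results of these data known. Named were all members, Myb, up to 4 genes of each list with the smallest p, every gene of a list called in a direction that held 5 or fewer, and the 3 nearest profiles. Ccnd1, Cdk2, overlapping genes and marker genes were named outside that rule. Some genes of the pre-B marker list are not reported here.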

Additional observations from a re-analysis of the deposited data

How the results depend on the processing

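Over all alternatives, 5 to 7 members were lower and 2 or 3 higher, and Ccnd3, Cdk4, Ccne1, Ccne2, Cdkn1a, Cdkn1b and Cdkn2d kept direction and call under all 14 run on single genes. Library totals alone gave 4667 genes higher and 3103 lower, against 3855 and 3994 with TMM. Leaving out each library gave 6626 to 7481 called genes and 8 to 9 called members. The replicate block gave 7341 genes and 9 members. Of the single genes run under the alternatives, it ended only the call of Pkmyt1 (edgeR adjusted p = 0.072). Most marker genes were not run singly under the alternatives. Same-numbered libraries deviated in opposite ways (r = -0.195 across genes), and a crossed block, chosen after seeing the data, called 8593 genes and 10 members. Among uncalled genes, the sign turned for Cdkn2c with GC content and length corrected (-0.0010), for Cdkn2b with the expression trend corrected (-0.212), and for Tspan31 with library totals (0.0277) and with GC content and length corrected (0.0478). Leaving out 1 library, the log2 fold change ranged from -0.0449 to 0.198 for Cdkn2b, from -0.0189 to 0.0526 for Cdk2 and from -0.0824 to 8.5e-04 for Tspan31. The cause was not tested. The calls of Ccnd2, Cdk6 and Cdkn2c depended on the settings given beside them. Depth limited mainly Cdkn1c, with 13 to 40 counts per library and an SE of 0.34.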
